A study of Mus musculus with 18 samples.

Results

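The mitochondrial protein import machinery was taken as the genes whose mouse symbols begin with Tomm or Timm, together with Pam16, Grpel1, Grpel2, Dnajc15, Dnajc19, Samm50, Mtx1, Mtx2, Mtx3, Chchd4, Gfer, Pmpca and Pmpcb. Of the 28096 genes counted in the files, 40 met this rule. They are 39 genes of the machinery or named after it and 1 antisense transcript, Tomm6os, taken by its name alone. Enough reads for a test were present for 38 of the 40, and Timm8a2 (at most 20 counts in any library) and Tomm20l (at most 13 counts) were below the filter on low counts.

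The 18 libraries came from B cells purified from the spleens of mice at least 8 weeks old, on the C57BL/6 background (strain label C57BL/6 N), and held 15368941 to 41072854 counts each. WT cells carried intact Ubqln1, the gene of a chaperone of the ubiquilin family, and Ubqln1-/- cells came from mice in which exon 2 of Ubqln1 had been deleted in embryonic stem cells, so that the deletion was not limited to B cells. For 4 hr the cells were left resting, or received anti-IgM (as F(ab)2, 10 μg/mL), which crosslinks the B cell receptor, or LPS from E. coli (20 μg/mL), which acts through a Toll-like receptor, with 3 libraries per group. Triplicate wells were pooled before RNA purification, how many mice stood behind a library is not given in the sources used here, and p-values measure the spread between the libraries that the labels number as replicates.

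Ubqln1 itself was at 237, 236 and 229.5 counts per 1000000 counts (CPM) in resting WT cells and at 92.7, 91.4 and 106 CPM in resting Ubqln1-/- cells. With anti-IgM it was at 319.8, 339 and 319 CPM in WT against 111, 125 and 128 CPM in Ubqln1-/- cells, and with LPS at 296, 298 and 267 against 97.99, 108 and 111 CPM. Every Ubqln1-/- library was below every WT library, which matches the labels. Where in the gene the remaining reads lie was not examined, since the counts are per gene. The 6 B cell markers were all detected and summed to 6911 to 8366 CPM at rest, 2196 to 2829 CPM with anti-IgM and 5463 to 6577 CPM with LPS. Markers of other cells were low: at most 1.17 CPM for 5 T cell genes, 0.558 for 3 NK cell genes, 0.949 for 3 neutrophil genes and 4.56 for the 5 of 6 erythroid genes in the files, with Cd3g, Cd3e, Ly6g or Ncr1 at 0 in every library of some groups. The 5 monocyte and macrophage markers summed to 21.9 to 50.6 CPM at rest and 11.6 to 20.4 CPM after stimulation, and the 4 dendritic cell markers to 7.74 to 13.9 CPM at rest, 8.62 to 12.4 CPM with anti-IgM and 16.8 to 27.3 CPM with LPS. These sums move with the stimulus, and their part in the results was not tested. In bulk RNA, fewer cells expressing a gene and less of its RNA per cell cannot be told apart, and every level is a share of its library.

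Nearly all mitochondrial proteins are encoded in the nucleus, made in the cytosol and imported. The TOM complex is the common entry gate of the outer membrane, the SAM complex inserts barrel-shaped proteins there, and the MIA relay folds cysteine-rich proteins in the intermembrane space by oxidising them. Small TIM chaperones carry hydrophobic proteins across that space, the TIM22 translocase inserts metabolite carriers into the inner membrane, and the TIM23 channel with the PAM motor passes proteins with a presequence to the matrix, where the peptidase MPP removes it.

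Most import transcripts were higher after either stimulus. With anti-IgM, 33 of 38 tested members were higher than at rest in WT cells (adjusted p under 0.05 in edgeR's quasi-likelihood test, adjusted over all tested genes) and 1 was lower, where 32.4% of all 14161 tested genes were called higher and 32.2% lower. In Ubqln1-/- cells 35 were higher and 1 lower, beside 32.9% and 32.4% of all genes. With LPS, 31 were higher and 1 lower in WT cells (31.2% and 30.1% of all genes), and 29 were higher and 0 lower in Ubqln1-/- cells (30.6% and 30.2%). The median log2 fold change of the members was 0.58 (WT) and 0.63 (Ubqln1-/-) with anti-IgM and 0.42 (WT) and 0.53 (Ubqln1-/-) with LPS, and that of all tested genes lay between -0.02 and -0.01 in these comparisons. Of the members, 28 were higher in all 4 comparisons. The share of all genes higher in all 4 was not counted, and it cannot exceed the smallest single share, 30.6%. Below, a gene is called where its adjusted p is under 0.05, and a pair of values gives WT before Ubqln1-/- cells. Unless another fit is named, calls and errors are from the fit that leaves out the replicate number. Same-numbered libraries deviated together within a genotype, and the fit with the number as a block is given where it changed a call. The counts per complex below stand beside the same shares of all tested genes.

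Summed over the 40 genes, the level was 1477 ± 115 CPM (SD, n = 3) in resting WT cells, 2311 ± 61.6 CPM with anti-IgM and 2192 ± 167 CPM with LPS. In Ubqln1-/- cells it was 1449 ± 20.99 CPM at rest, 2265 ± 53.7 CPM with anti-IgM and 2187 ± 89.0 CPM with LPS. No stimulated library (lowest 2026 CPM) reached down to the highest resting library (1587 CPM).

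The rise was uneven. A log2 fold change over 1 together with the call was reached by 9 members with anti-IgM in each genotype (9.49% of all genes in WT and 9.6% in Ubqln1-/- cells), and by 9 members in WT and 10 in Ubqln1-/- cells with LPS (7.84% and 7.82%). It was reached in all 4 comparisons by 8 members: Chchd4, Timm8a1, Timm9, Timm10, Timm23, Tomm5, Tomm20 and Tomm40. The share of all genes that did so in all 4 was not counted, and it cannot exceed the smallest single share, 7.82%. Timm50 passed a log2 fold change of 1 with anti-IgM, Mtx2 with LPS, and Timm17a with LPS in Ubqln1-/- cells.

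**Figure D1:**
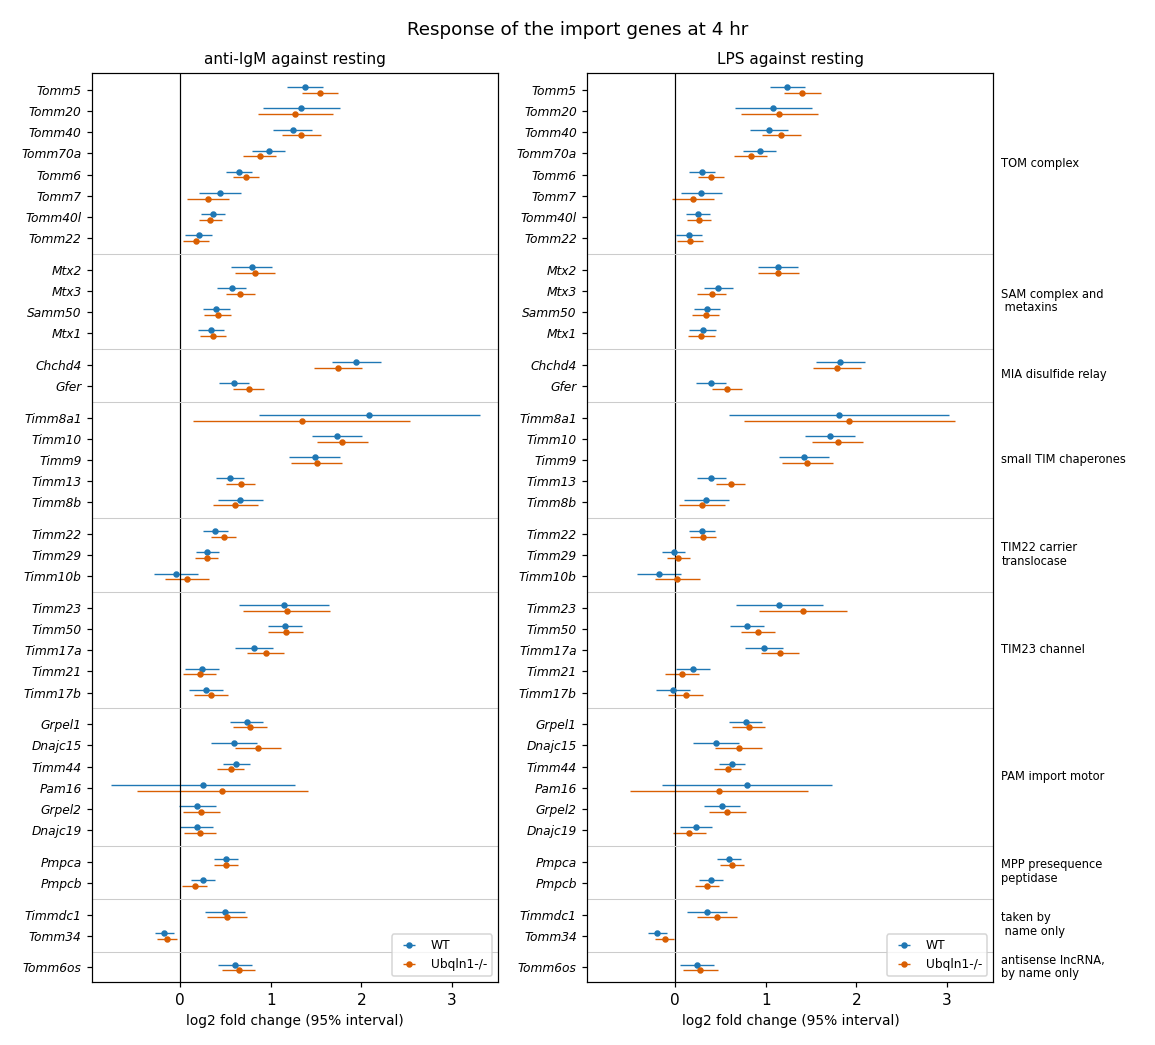
Log2 fold change against resting cells (horizontal axis) of the 38 tested import genes, ordered by role, with anti-IgM on the left and LPS on the right. Points are edgeR estimates for WT (blue) and Ubqln1-/- (orange) cells, 3 libraries per group, and bars are 95% intervals. Most points lie right of 0, Chchd4 and Timm10 are among the 3 farthest right in each comparison, and Tomm34 lies left of 0.

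Reads are 50 bases long, from libraries that do not keep strand, and for some members they cannot be assigned with certainty. Among the 50-base words of the transcripts, 90.9% of those of Timm23 and 88.7% of those of Pam16 also occur in other annotated genes (chiefly Gm10273 and Gm9803), as do 41.0% of those of Timm8a1 (the pseudogene Gm9797) and 27.4% of those of Gfer (Dst). Exons of other genes overlap 93% of the words of Tomm6 (Tomm6os, Gm21981 and Usp49), 64.1% of those of Tomm40l (Nr1i3, on the opposite strand), 49.5% of Timm10b (Gm45799, Arfip2 and Gm22504), 39.4% of Tomm6os, 26.7% of Pmpca (Inpp5e), 12.5% of Tomm40 (Gm20512) and 10.4% of Grpel1 (Tada2b), and 30.1% of the exonic bases of Mtx1 and 15.6% of those of Timm8b. The counts of Timm8a1 (0 to 25 per library), Pam16 (3 to 40), Timm23 (6 to 47) and Tomm20 (22 to 124) were low in every library. Whether reads that match several genes were left out of the counts is not given in the sources used here, so these low counts cannot be read as low expression (6.3% of the words of Tomm20 occur in other genes). The words come from annotated transcripts, which can be longer than the deposited width. Timm17a had 7226 words for 917 bases, Dnajc15 6144 for 648, Tomm20 4804 for 1009 and Dnajc19 4046 for 1015. Shares over the counted part alone may be larger or smaller and were not computed. Among the 24 tested members with at most 10% of words or exonic bases shared and with 150 or more counts in some library, 21 were higher and 1 lower with anti-IgM in WT cells, 23 and 1 in Ubqln1-/- cells, 19 and 1 with LPS in WT cells and 17 and 0 in Ubqln1-/- cells. In the same order, 32.4%, 32.9%, 31.2% and 30.6% of all tested genes were higher and 32.2%, 32.4%, 30.1% and 30.2% lower. Those shares are not limited to genes with few shared words.

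The promoters of the members were searched for 4 short motifs in windows from 250 bases before to 50 bases after the start, taken from RefSeq on the build GRCm38.p6. A window was given for 35 of the 39 genes other than Tomm6os, with none used here for Tomm40l, Grpel2, Timm21 and Tomm7. The 35 include the untested Timm8a2 and Tomm20l, so the shares of tested genes given below cover a narrower kind of set. The E-box CACGTG, which is the same on both strands and is bound by factors of the Myc family, occurred in 6 of 35 windows (17.1%), beside 8.09% of all 27025 windows and 11.8% of those of tested genes. It was found in Timm10, Timm8a1, Timm9 and Tomm20 among the 8 members that passed a log2 fold change of 1 in all 4 comparisons, in Mtx3, and in the untested Tomm20l. Chchd4, Timm23, Tomm5 and Tomm40 did not hold these letters in the window.

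The motif CCGGAAGTG (or CACTTCCGG on the other strand), typical of ETS factors, occurred in 7 of 35 windows (20.0%), beside 2.25% of all and 5.00% of tested genes, in Mtx2, Timm10, Timm23, Timm29, Timm8a2, Timmdc1 and Tomm70a. AAGATGGCG (or CGCCATCTT), the core of YY1 sites, occurred in 3 (8.57%, beside 1.64% and 3.60%): Mtx1, Mtx3 and Timm50. GCGCATGCG (or CGCATGCGC), from the palindrome bound by NRF1, occurred in Timm13 alone (2.86%, beside 1.95% and 4.15%). Of the genes with the ETS motif, Timm10, which also held the E-box, rose 3.26-fold with LPS in WT cells. Timm29 was called higher with anti-IgM in both genotypes and was not called with LPS. A match describes letters and is no evidence of binding, and its part in the response was not tested.

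The following 6 windows show where the motifs lie, 3 with the E-box and 3 with the ETS motif, each written 5′ to 3′ in the gene's direction, with the motif in capitals. Positions are counted from the start that the RefSeq promoter windows use, and all 6 stretches end before it. For Timm9, the last bases of the stretch, but not the capitals, lie inside the longer gene span that RefSeq also gives.
Timm9 (chr12:71136701-71136760, minus strand, motif beginning 58 bases before the start): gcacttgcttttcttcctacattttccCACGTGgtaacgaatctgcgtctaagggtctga
Tomm20 (chr8:126946015-126946074, minus strand, motif beginning 126 bases before the start): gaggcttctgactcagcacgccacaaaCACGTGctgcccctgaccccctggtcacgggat
Timm8a1 (chrX:134541874-134541920, minus strand, motif beginning 236 bases before the start): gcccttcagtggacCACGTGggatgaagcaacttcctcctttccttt
Timm23 (chr14:32201905-32201967, minus strand, motif beginning 49 bases before the start): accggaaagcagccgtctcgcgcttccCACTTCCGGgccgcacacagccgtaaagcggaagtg
Tomm70a (chr16:57121607-57121669, plus strand, motif beginning 80 bases before the start): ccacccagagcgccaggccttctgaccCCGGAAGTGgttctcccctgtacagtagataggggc
Mtx2 (chr2:74825760-74825811, plus strand, motif beginning 25 bases before the start): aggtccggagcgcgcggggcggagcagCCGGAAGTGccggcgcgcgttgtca
The Timm10 window held both motifs after the start, at 16 and 28 bases, and is not printed. Those of Mtx3 and Tomm20l, which also held the E-box, are not printed either, nor are those of Timm29, Timm8a2 and Timmdc1, which held the ETS motif. A further copy of the printed motif began 1 base before the start in Timm9. In Timm8a1 and Mtx2 a further copy lay after the start, at 24 and 6 bases.

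The TOM complex rose with anti-IgM in all 8 of its members in both genotypes, and with LPS in 7 of 8 in WT and 6 of 8 in Ubqln1-/- cells. Tomm5, a small subunit that lies against the pore, was at 21.2, 25.4 and 21.03 RPKM at rest, 56.04, 60.8 and 60.2 with anti-IgM and 52.2, 59.8 and 48.1 with LPS in WT cells, where RPKM is reads per kilobase per 1000000 counts. Tomm5 was at 18.8, 21.6 and 19.4 RPKM at rest, 58.1, 58.5 and 57.4 with anti-IgM and 48.5, 56.1 and 53.5 with LPS in Ubqln1-/- cells. All 12 stimulated libraries of Tomm5 lay above all 6 resting libraries. The log2 fold change with anti-IgM was 1.38 ± 0.09 (SE, adjusted p = 3.08e-09) in WT and 1.54 ± 0.09 in Ubqln1-/- cells, and with LPS 1.24 ± 0.09 and 1.40 ± 0.09.

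Tomm40 forms the protein-conducting pore. Its WT levels were 44.2, 57.4 and 55.1 RPKM at rest, 116, 123 and 132 with anti-IgM and 105, 122 and 94.8 with LPS. The Ubqln1-/- libraries gave 43.3, 44.5 and 50.3 RPKM at rest, 112, 113 and 125 with anti-IgM and 100, 109 and 102 with LPS. The pore gene thus rose 2.37-fold with anti-IgM and 2.05-fold with LPS in WT cells and 2.53-fold and 2.25-fold in Ubqln1-/- cells, with no stimulated library as low as a resting one. Tomm70a, a receptor for carrier precursors, stood at 40.9 ± 3.32 RPKM in resting WT cells and rose 1.97-fold and 1.91-fold in WT and 1.83-fold and 1.78-fold in Ubqln1-/- cells.

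Tomm20, the receptor for presequences, had few reads. The WT levels were 1.39, 1.35 and 1.88 RPKM at rest, 2.81, 4.02 and 4.92 with anti-IgM and 2.98, 3.12 and 3.73 with LPS. Without Ubqln1 the levels were 1.41, 1.73 and 1.79 RPKM at rest, 3.83, 3.72 and 4.39 with anti-IgM and 3.53, 3.84 and 3.54 with LPS. Every stimulated library was higher than every resting one, with log2 fold changes of 1.34 ± 0.20 and 1.27 ± 0.20 with anti-IgM and 1.08 ± 0.20 and 1.15 ± 0.20 with LPS. Tomm22, the receptor that joins Tomm20 to the pore, was among the most abundant members at 44.6 ± 4.84 RPKM (SD, n = 3) in resting WT cells and moved least of the complex. Its log2 fold change was 0.20 ± 0.07 (adjusted p = 0.0157) and 0.17 ± 0.07 (adjusted p = 0.0351) with anti-IgM, and 0.15 ± 0.07 and 0.16 ± 0.07 with LPS (adjusted p = 0.0703 and 0.0536). With the replicate number as a block both LPS values of Tomm22 were called (log2 0.15 and 0.16). They were also called without 1 library, resting replicate 2 in WT (log2 0.25) and resting replicate 1 in Ubqln1-/- cells (log2 0.20).

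The small subunits Tomm6 and Tomm7 rose less than Tomm5. Tomm6 (58.5 ± 6.10 RPKM in resting WT cells) changed by log2 0.65 and 0.72 with anti-IgM and 0.29 and 0.39 with LPS in WT and Ubqln1-/- cells. For Tomm7 (18.6 ± 2.95 RPKM) the values were 0.44 and 0.31 with anti-IgM and 0.29 and 0.19 with LPS, of which the last was not called (adjusted p = 0.138). Tomm6os, whose exons overlap those of Tomm6 on the opposite strand, was at 6.76 ± 0.785 RPKM in resting WT cells and changed by log2 0.60, 0.64, 0.24 and 0.28 in the same order. Reads from the part where the pair overlaps cannot be told apart, and exons of other genes, these included, overlap 93% of the words of Tomm6 and 39.4% of those of Tomm6os.

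Some of the smaller calls of the TOM genes were lost when 1 library was left out. That of Tomm22 with anti-IgM was lost in WT cells without anti-IgM replicate 3 or resting replicate 1 or 3 (log2 0.14 to 0.18) and in Ubqln1-/- cells without anti-IgM replicate 2 or resting replicate 2 or 3 (log2 0.14 to 0.18). The Tomm7 call was lost with anti-IgM in Ubqln1-/- cells without anti-IgM replicate 1 or resting replicate 1 or 3 (log2 0.26 to 0.28) and with LPS in WT cells without LPS replicate 2 or resting replicate 1 or 3 (log2 0.19 to 0.25). The Tomm6os call with LPS was lost in WT cells without LPS replicate 1 or 2 or resting replicate 1 or 3 (log2 0.15 to 0.24) and in Ubqln1-/- cells without LPS replicate 3 or resting replicate 2 (log2 0.22 to 0.24).

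Tomm40l, a close relative of Tomm40, was expressed at a lower level. It was at 11.4, 13.1 and 12.6 RPKM at rest, 15.5, 16.2 and 15.9 with anti-IgM and 14.9, 14.9 and 14.4 with LPS in WT cells. Tomm40l in Ubqln1-/- cells was at 13.1, 12.6 and 14.1 RPKM at rest, 16.1, 16.7 and 17.2 with anti-IgM and 15.2, 16.1 and 16.2 with LPS. All stimulated libraries lay above the resting ones of their genotype. It rose by log2 0.36 ± 0.06 and 0.33 ± 0.06 with anti-IgM and 0.25 ± 0.06 and 0.26 ± 0.06 with LPS, less than Tomm40 in each comparison. Tomm20l, the relative of Tomm20, was not tested and reached 0.766 RPKM at most.

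The SAM complex and the metaxins rose in 4 of 4 members in all 4 comparisons. Samm50, the barrel that inserts other barrel proteins, had the highest mean level of all members in resting WT cells, 62.7 ± 7.31 RPKM, although its libraries overlapped those of the next, Tomm6. It rose by log2 0.40 and 0.41 with anti-IgM and 0.35 and 0.33 with LPS in WT and Ubqln1-/- cells. Mtx2, which sits with Samm50 on the cytosolic face, gave the largest change of the group. Its WT levels were 16.1, 20.04 and 18.2 RPKM at rest, 32.9, 32.1 and 29.2 with anti-IgM and 40.8, 43.4 and 35.2 with LPS. Levels in Ubqln1-/- cells were 16.3, 18.5 and 18.2 RPKM at rest, 28.6, 34.2 and 31.4 with anti-IgM and 38.6, 43.5 and 34.6 with LPS. Both stimuli lifted Mtx2 above every resting library, to 1.73-fold and 1.78-fold of resting with anti-IgM and 2.19-fold and 2.20-fold with LPS.

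Mtx1, the partner of Mtx2, was at 22.8, 25.4 and 25.2 RPKM at rest, 30.6, 30.6 and 31.8 with anti-IgM and 30.1, 29.3 and 31.2 with LPS in WT cells. Mtx1 was at 23.1, 21.9 and 26.4 RPKM at rest, 28.5, 30.9 and 32.5 with anti-IgM and 29.6, 28.8 and 28.6 with LPS in Ubqln1-/- cells. No stimulated library overlapped the resting ones, and Mtx1 rose by log2 0.34 ± 0.07 and 0.36 ± 0.07 with anti-IgM and 0.30 ± 0.07 and 0.28 ± 0.07 with LPS. Mtx3, the third metaxin, was the least abundant of the group, at 4.08, 3.93 and 3.90 RPKM at rest, 5.59, 6.21 and 5.85 with anti-IgM and 5.84, 5.71 and 5.02 with LPS in WT cells. The Ubqln1-/- libraries gave 4.27, 4.12 and 4.06 RPKM at rest, 5.93, 6.90 and 6.88 with anti-IgM and 5.25, 5.85 and 5.34 with LPS. It rose by 0.57 ± 0.08 and 0.66 ± 0.08 with anti-IgM and 0.48 ± 0.08 and 0.40 ± 0.08 with LPS, and no stimulated library reached down to a resting one.

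**Figure D2:**
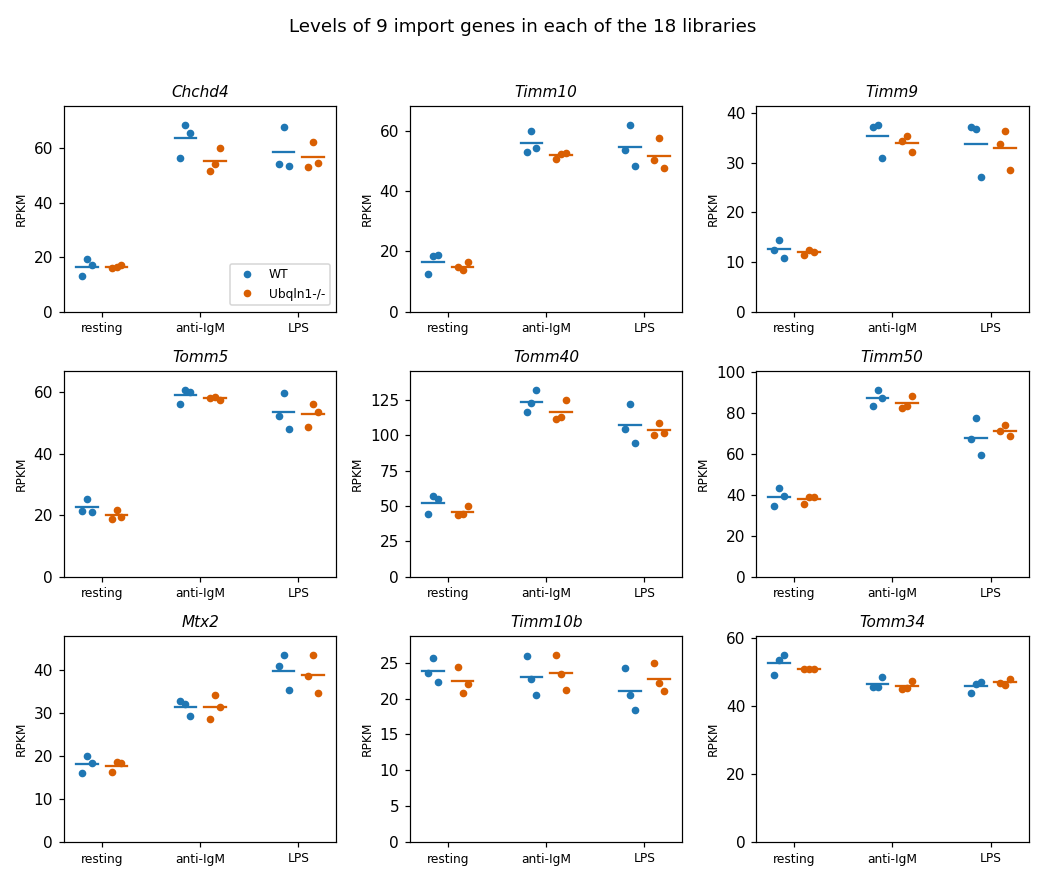
Level of 9 import genes (vertical axis, RPKM from 0) in each of the 18 libraries, grouped by stimulus on the horizontal axis, with WT in blue and Ubqln1-/- in orange. Points are libraries and lines are the means of 3. Resting libraries lie lowest for Chchd4, Timm10, Timm9, Tomm5, Tomm40, Timm50 and Mtx2, overlap with the stimulated ones for Timm10b, and lie highest for Tomm34.

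Chchd4 encodes the MIA oxidoreductase that gives imported proteins their disulfide bonds, and it showed the largest rise with anti-IgM in WT cells among members with more than 150 counts in some library. In WT cells it was at 12.99, 19.2 and 16.9 RPKM at rest, 56.4, 68.5 and 65.6 with anti-IgM and 54.1, 67.8 and 53.3 with LPS. Without Ubqln1 the levels were 16.02, 16.2 and 17.1 RPKM at rest, 51.5, 54.1 and 59.9 with anti-IgM and 53.1, 62.2 and 54.5 with LPS. The lowest stimulated library, in either genotype, lay far above the highest resting library. The changes were 3.85-fold (log2 1.94 ± 0.13, adjusted p = 2.27e-09) and 3.35-fold with anti-IgM, and 3.54-fold and 3.44-fold with LPS, in WT and Ubqln1-/- cells. Gfer, the oxidase that recharges the relay, was at 16.2 ± 2.10 RPKM in resting WT cells and rose less, by log2 0.59 ± 0.08 and 0.76 ± 0.08 with anti-IgM and 0.39 ± 0.08 and 0.57 ± 0.08 with LPS.

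All 5 tested small TIM chaperones rose in all 4 comparisons. Timm9 and Timm10 build the hexamer that escorts carriers. Timm10 was at 12.4, 18.5 and 18.9 RPKM at rest, 53.01, 60.1 and 54.3 with anti-IgM and 53.7, 62.01 and 48.2 with LPS in WT cells. Timm10 in Ubqln1-/- cells was at 14.7, 13.9 and 16.3 RPKM at rest, 50.5, 52.4 and 52.5 with anti-IgM and 50.1, 57.6 and 47.5 with LPS. No stimulated library came near a resting one, and the change was 3.33-fold and 3.46-fold with anti-IgM and 3.26-fold and 3.47-fold with LPS. Timm9 was at 12.5, 14.5 and 10.8 RPKM at rest, 37.3, 37.7 and 30.97 with anti-IgM and 37.2, 36.8 and 27.2 with LPS in WT cells. Levels in Ubqln1-/- cells were 11.4, 12.4 and 12.1 RPKM at rest, 34.4, 35.5 and 32.1 with anti-IgM and 33.8, 36.4 and 28.5 with LPS. Again the groups did not overlap, and the log2 fold changes of Timm9, 1.49 ± 0.13 and 1.51 ± 0.13 with anti-IgM and 1.42 ± 0.13 and 1.46 ± 0.13 with LPS, were a little under those of its partner.

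Timm8a1 and Timm13 encode the partners of another hexamer. Timm8a1 was barely detected: its counts were 0, 6 and 5 in resting WT libraries, 22, 20 and 13 with anti-IgM and 19, 25 and 18 with LPS. In Ubqln1-/- libraries they were 6, 6 and 2 at rest, 8, 13 and 24 with anti-IgM and 13, 19 and 19 with LPS. The fitted changes were log2 2.09 ± 0.58 and 1.34 ± 0.57 with anti-IgM and 1.81 ± 0.57 and 1.92 ± 0.55 with LPS, with the widest errors of the rising members. Its anti-IgM call in Ubqln1-/- cells (adjusted p = 0.0468) was lost without anti-IgM replicate 3 or any resting replicate (log2 0.65 to 1.58). Timm13, at 44.5 ± 5.04 RPKM in resting WT cells, rose by log2 0.55 and 0.67 with anti-IgM and 0.40 and 0.61 with LPS. Timm8b, the close relative of Timm8a1, was at 26.4, 25.4 and 23.3 RPKM at rest, 43, 40.2 and 35.8 with anti-IgM and 35.4, 33.6 and 25.9 with LPS in WT cells. Timm8b was at 25.4, 26.9 and 20.6 RPKM at rest, 37.4, 37.6 and 36.2 with anti-IgM and 30.7, 31.4 and 27.1 with LPS in Ubqln1-/- cells. The groups were apart except with LPS in WT cells, where replicate 3 fell within the resting range. It rose by log2 0.67 and 0.61 with anti-IgM and 0.34 and 0.29 with LPS. With LPS the Timm8b call was lost in WT cells without LPS replicate 1 or 2 or resting replicate 3 (log2 0.26 to 0.30) and in Ubqln1-/- cells without LPS replicate 1 or 2 or resting replicate 1 or 3 (log2 0.19 to 0.33). Their relative Timm8a2 was not tested and was at most 0.555 RPKM.

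Of the 3 members of the TIM22 carrier translocase, 2 were called higher with anti-IgM and 1 with LPS, in both genotypes. Among all tested genes, 32.4% (WT) and 32.9% (Ubqln1-/-) were higher with anti-IgM, and 31.2% and 30.6% with LPS. The LPS count is thus near the share of all genes. Timm22, its channel (8.45 ± 0.859 RPKM in resting WT cells), rose by log2 0.39 ± 0.07 and 0.48 ± 0.07 with anti-IgM and 0.30 ± 0.07 and 0.31 ± 0.07 with LPS. Timm29, a stabilising subunit, was higher with anti-IgM (0.30 ± 0.06 and 0.29 ± 0.06) and not called with LPS (-0.02 ± 0.06 and 0.03 ± 0.06). Timm10b, the small TIM bound to this translocase, was called in none of the 4 comparisons. It was at 23.6, 25.6 and 22.3 RPKM at rest, 26.02, 22.7 and 20.5 with anti-IgM and 24.3, 20.6 and 18.4 with LPS in WT cells. The Ubqln1-/- libraries gave 24.4, 20.8 and 22.1 RPKM at rest, 26.1, 23.5 and 21.3 with anti-IgM and 25.01, 22.2 and 21.1 with LPS. Stimulated and resting libraries overlapped throughout. With LPS in WT cells the log2 fold change was -0.18 ± 0.11 (adjusted p = 0.19), and it was called lower with the replicate block (log2 -0.19) and without LPS replicate 1 (log2 -0.29).

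In the TIM23 channel, all 5 members rose with anti-IgM in both genotypes and 3 of 5 with LPS. Beside them, 32.4% (WT) and 32.9% (Ubqln1-/-) of all tested genes were higher with anti-IgM and 31.2% and 30.6% with LPS. Timm50, the receptor that takes over presequences from the outer membrane, was at 34.5, 43.1 and 39.5 RPKM at rest, 83.2, 91.2 and 87.3 with anti-IgM and 67.1, 77.3 and 59.2 with LPS in WT cells. Without Ubqln1 the levels were 35.4, 38.98 and 38.99 RPKM at rest, 82.4, 83.4 and 88.1 with anti-IgM and 71.02, 74.05 and 68.6 with LPS. The fold changes of Timm50 were 2.23-fold and 2.24-fold with anti-IgM and 1.74-fold and 1.89-fold with LPS, with no overlap between stimulated and resting libraries. The channel gene Timm23 was at 0.330, 0.469 and 0.557 RPKM at rest, 0.858, 0.978 and 1.26 with anti-IgM and 1.03, 1.03 and 1.02 with LPS in WT cells. Timm23 in Ubqln1-/- cells was at 0.448, 0.501 and 0.449 RPKM at rest, 1.003, 1.19 and 0.982 with anti-IgM and 1.38, 1.36 and 0.992 with LPS. All stimulated libraries lay above the resting ones, at levels near 1 RPKM and for a gene with mostly shared words, and the fitted changes were log2 1.15 ± 0.23 and 1.18 ± 0.23 with anti-IgM and 1.15 ± 0.23 and 1.41 ± 0.23 with LPS.

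Timm17a and Timm17b encode alternative partners of Timm23 in the channel, and they parted after stimulation. Timm17a was at 16.4, 21.03 and 18.03 RPKM at rest, 30.1, 34.04 and 33.8 with anti-IgM and 36.2, 39.9 and 33.8 with LPS in WT cells. Levels in Ubqln1-/- cells were 17.1, 15.9 and 16.5 RPKM at rest, 30.9, 32.9 and 31.2 with anti-IgM and 37.97, 39.8 and 32.1 with LPS. Every stimulated library lay above every resting one. It rose by log2 0.81 ± 0.10 and 0.94 ± 0.10 with anti-IgM and 0.98 ± 0.10 and 1.15 ± 0.10 with LPS. Timm17b was at 18.8, 21.8 and 20.6 RPKM at rest, 27.4, 23.7 and 23.9 with anti-IgM and 20.5, 20.2 and 19.5 with LPS in WT cells. Timm17b was at 20.1, 18.4 and 20.01 RPKM at rest, 27.9, 21.6 and 24.8 with anti-IgM and 21.7, 19.9 and 21.8 with LPS in Ubqln1-/- cells. The anti-IgM libraries lay above the resting ones of their genotype, and the LPS libraries overlapped them. It rose by 0.29 ± 0.09 and 0.34 ± 0.09 with anti-IgM and was not called with LPS (-0.03 ± 0.09 and 0.11 ± 0.09). Timm21, a subunit that docks the channel to the outer membrane and the respiratory chain (12.2 ± 0.766 RPKM in resting WT cells), rose by 0.24 ± 0.09 and 0.21 ± 0.09 with anti-IgM, and with LPS it was at 0.20 ± 0.09 and 0.07 ± 0.09 (adjusted p = 0.062 and 0.507, the former called with the block at log2 0.19 and without LPS replicate 3 at log2 0.24). The anti-IgM call of Timm21 was lost in WT cells without anti-IgM replicate 1 or 2 or resting replicate 1 (log2 0.19 to 0.20) and in Ubqln1-/- cells without any anti-IgM replicate or resting replicate 1 or 3 (log2 0.18 to 0.23), and that of Timm17b in WT cells was lost without resting replicate 1 (log2 0.23).

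The PAM motor rose in part: 3 of 6 members in WT and 5 of 6 in Ubqln1-/- cells with anti-IgM, and 5 and 4 with LPS. The shares of all tested genes called higher were 32.4% and 32.9% with anti-IgM and 31.2% and 30.6% with LPS. Grpel1, the nucleotide exchange factor of the motor, was at 15.2, 16.98 and 15.2 RPKM at rest, 25.1, 27.4 and 26.4 with anti-IgM and 26.5, 30.9 and 23.8 with LPS in WT cells. The Ubqln1-/- libraries gave 14.7, 15.7 and 15.2 RPKM at rest, 24.4, 25.9 and 27.4 with anti-IgM and 24.5, 28.8 and 26.4 with LPS. Stimulated and resting libraries were apart, and Grpel1 rose by log2 0.73 ± 0.09 and 0.77 ± 0.09 with anti-IgM and 0.78 ± 0.09 and 0.81 ± 0.09 with LPS. Timm44, which tethers the motor to the channel (36.6 ± 2.54 RPKM in resting WT cells), rose by 0.62 ± 0.07, 0.56 ± 0.07, 0.63 ± 0.07 and 0.58 ± 0.07 in the same order. Grpel2, another exchange factor, was at 9.32, 10.2 and 9.37 RPKM at rest, 10.8, 12.1 and 10.1 with anti-IgM and 15.5, 14.2 and 11.7 with LPS in WT cells. Without Ubqln1 the levels were 10.2, 10.7 and 9.60 RPKM at rest, 11.3, 12.4 and 12.03 with anti-IgM and 15.4, 16.2 and 13.6 with LPS. The LPS libraries were highest in both genotypes, save that WT LPS replicate 3 lay among the anti-IgM libraries. Grpel2 rose with LPS (0.52 ± 0.10 and 0.57 ± 0.10), while with anti-IgM it was called in Ubqln1-/- cells (0.23 ± 0.10, adjusted p = 0.0423) and not in WT cells (0.19 ± 0.10, adjusted p = 0.1, called with the block at log2 0.19). The anti-IgM call in Ubqln1-/- cells was lost without anti-IgM replicate 2 or 3 or resting replicate 1 or 3 (log2 0.19 to 0.24), and in WT cells it was made without anti-IgM replicate 3 (log2 0.25).

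Among the J proteins of the motor, Dnajc19 moved little. It was at 10.01, 10.8 and 10.8 RPKM at rest, 11.8, 12.1 and 12.1 with anti-IgM and 11.7, 13.5 and 11.9 with LPS in WT cells. Dnajc19 in Ubqln1-/- cells was at 9.47, 10.6 and 10.7 RPKM at rest, 11.4, 11.6 and 12.9 with anti-IgM and 10.9, 11.7 and 11.7 with LPS. Stimulated libraries lay just above the resting ones of their genotype. The changes were log2 0.18 ± 0.08 and 0.22 ± 0.08 with anti-IgM (adjusted p = 0.0724 and 0.0299, the former called with the block at log2 0.18) and 0.23 ± 0.08 and 0.16 ± 0.09 with LPS (adjusted p = 0.026 and 0.127). The calls were lost with anti-IgM in Ubqln1-/- cells without anti-IgM replicate 3 or resting replicate 1 (log2 0.18) and with LPS in WT cells without LPS replicate 2 or resting replicate 1 (log2 0.16 to 0.19). Dnajc15, its relative, was at 15.5, 21.6 and 18.1 RPKM at rest, 26.7, 28.8 and 28.6 with anti-IgM and 26.4, 28.4 and 21.2 with LPS in WT cells. Levels in Ubqln1-/- cells were 14.6, 15.3 and 13.9 RPKM at rest, 25.3, 27.7 and 26.4 with anti-IgM and 24.03, 25.9 and 21.1 with LPS. Resting libraries were lowest, except that WT LPS replicate 3 lay among them. Dnajc15 rose by 0.60 ± 0.12 and 0.86 ± 0.12 with anti-IgM and 0.45 ± 0.12 and 0.70 ± 0.12 with LPS. Pam16, the partner that holds the J protein in place, had 3 to 40 counts per library (at most 1.98 RPKM) and was called in no comparison, with standard errors of 0.42 to 0.48 on the log2 scale against resting cells or between stimuli.

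Both subunits of the peptidase MPP rose in all 4 comparisons. Pmpca, the subunit that binds presequences (38.3 ± 2.33 RPKM in resting WT cells), rose by log2 0.51 ± 0.06 and 0.51 ± 0.06 with anti-IgM and 0.59 ± 0.06 and 0.62 ± 0.06 with LPS. Pmpcb, the catalytic subunit (35.7 ± 2.48 RPKM), rose by 0.25 ± 0.06, 0.16 ± 0.06, 0.39 ± 0.06 and 0.35 ± 0.06 in the same order. Its call with anti-IgM in Ubqln1-/- cells (adjusted p = 0.0368) was lost without anti-IgM replicate 2 or 3 or resting replicate 2 or 3 (log2 0.14 to 0.16).

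Tomm34 was the only member called lower with a stimulus. Despite its name it encodes a cytosolic cochaperone of Hsp70 and Hsp90 rather than a subunit of the gate. It was at 49.1, 53.7 and 55.1 RPKM at rest, 45.6, 45.7 and 48.6 with anti-IgM and 43.9, 46.5 and 47.1 with LPS in WT cells. Tomm34 was at 50.97, 50.95 and 51.01 RPKM at rest, 45.2, 45.4 and 47.5 with anti-IgM and 46.9, 46.3 and 47.9 with LPS in Ubqln1-/- cells. All 12 stimulated libraries lay below all 6 resting ones, by small amounts: log2 -0.18 ± 0.05 (adjusted p = 0.00541) and -0.15 ± 0.05 (adjusted p = 0.0164) with anti-IgM, and -0.20 ± 0.05 (adjusted p = 0.00237) and -0.12 ± 0.05 (adjusted p = 0.0555, called with the block at log2 -0.12) with LPS. The anti-IgM call in Ubqln1-/- cells was lost without anti-IgM replicate 1 or 2 or resting replicate 1 (log2 -0.14 to -0.12). Timmdc1, an assembly factor of respiratory complex I that was taken by its name, was at 8.34, 8.93 and 8.25 RPKM at rest, 12.6, 11.9 and 11.4 with anti-IgM and 11.5, 11.9 and 9.01 with LPS in WT cells. The Ubqln1-/- libraries gave 8.51, 9.54 and 8.84 RPKM at rest, 12.8, 13.7 and 11.9 with anti-IgM and 11.6, 13.9 and 11.4 with LPS. Each stimulated library lay above the resting ones of its genotype. It rose by log2 0.49 ± 0.10 and 0.52 ± 0.10 with anti-IgM and 0.35 ± 0.10 and 0.46 ± 0.10 with LPS. The Timmdc1 call with LPS in WT cells was lost without LPS replicate 2 (log2 0.27).

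The stimuli were compared directly, LPS against anti-IgM. In WT cells 2 members were higher with LPS and 6 with anti-IgM, beside 17.4% and 15% of all tested genes. In Ubqln1-/- cells 3 were higher with LPS and 5 with anti-IgM (16.8% and 14.5% of all genes). Members higher with anti-IgM were thus near the share of all genes, and those higher with LPS below it. With the replicate number as a block WT cells had 3 members higher with LPS and 8 with anti-IgM, and Ubqln1-/- cells 4 and 9. The share of all genes called with the block is not given here, so these counts have no baseline. The median difference of the members was log2 -0.09 in WT and -0.06 in Ubqln1-/- cells, and that of all genes 0.00 and 0.01.

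Higher with LPS than with anti-IgM in both genotypes were Mtx2 (log2 0.34 ± 0.10 in WT and 0.31 ± 0.10 in Ubqln1-/- cells) and Grpel2 (0.33 ± 0.10 and 0.34 ± 0.10). Higher with anti-IgM than with LPS in both genotypes were Timm29 (-0.32 ± 0.06 and -0.26 ± 0.06), Timm50 (-0.36 ± 0.09 and -0.25 ± 0.09), Tomm6 (-0.36 ± 0.07 and -0.33 ± 0.07) and Tomm6os (-0.37 ± 0.09 and -0.37 ± 0.09). Timm29, the TIM22 subunit and the member with the smallest p in WT cells, was at 16.4, 16.1 and 14.4 RPKM at rest, 19.9, 18.5 and 19.4 with anti-IgM and 16.3, 14.7 and 15.4 with LPS in WT cells. Without Ubqln1 the levels were 15.7, 14.9 and 15.3 RPKM at rest, 19.3, 17.9 and 19.1 with anti-IgM and 15.7, 15.6 and 15.7 with LPS. The anti-IgM libraries were highest in both genotypes and the LPS libraries overlapped the resting ones.

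In single genotypes, Timm17b (-0.32 ± 0.09, adjusted p = 0.00985) and Timm8b (-0.32 ± 0.12, adjusted p = 0.0396) were lower with LPS than with anti-IgM in WT cells, and in Ubqln1-/- cells Mtx3 was lower (-0.26 ± 0.07) and Pmpcb higher (0.19 ± 0.06). In the other genotype the same genes gave -0.23 ± 0.09 for Timm17b (adjusted p = 0.0569), -0.32 ± 0.12 for Timm8b (adjusted p = 0.0501), -0.09 ± 0.07 for Mtx3 (adjusted p = 0.393) and 0.14 ± 0.06 for Pmpcb (adjusted p = 0.0942), and whether LPS against anti-IgM differed between genotypes was not tested. With the replicate block, Timm17b, Timm8b and Pmpcb were called in these as well (log2 -0.23, -0.32 and 0.14). The block also added Gfer in both genotypes (log2 -0.20 and -0.19), Tomm40 in WT cells (-0.21), and Timm17a (0.21) and Timm22 (-0.17) in Ubqln1-/- cells.

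Many of these calls were lost when 1 library was left out. In WT cells the call of Grpel2 was lost without LPS replicate 1 or anti-IgM replicate 3 (log2 0.24 to 0.27), that of Mtx2 without LPS replicate 2 or anti-IgM replicate 3 (log2 0.28 to 0.29), that of Timm17b without anti-IgM replicate 1 (log2 -0.24) and that of Timm8b without LPS replicate 3 or anti-IgM replicate 1 or 2 (log2 -0.32 to -0.20). In Ubqln1-/- cells that of Grpel2 was lost without LPS replicate 2 or anti-IgM replicate 1 (log2 0.28 to 0.31) and that of Mtx2 without LPS replicate 1 or 2 or anti-IgM replicate 1 or 3 (log2 0.22 to 0.32). There the call of Mtx3 was lost without LPS replicate 1 or 3 or anti-IgM replicate 2 (log2 -0.24 to -0.22), that of Pmpcb without LPS replicate 2 or 3 or anti-IgM replicate 1 (log2 0.15 to 0.18) and that of Timm50 without any LPS replicate or any anti-IgM replicate (log2 -0.28 to -0.22). Calls were gained in WT cells without LPS replicate 2 for Gfer (log2 -0.26) and Tomm40 (log2 -0.31), and in Ubqln1-/- cells for Timm17a without LPS replicate 3 (log2 0.30), for Timm17b without anti-IgM replicate 2 (log2 -0.32) and for Timm8a1 without anti-IgM replicate 3 (log2 1.28). The calls of Timm29, Tomm6 and Tomm6os held in both genotypes without each of the libraries in turn.

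**Figure D3:**
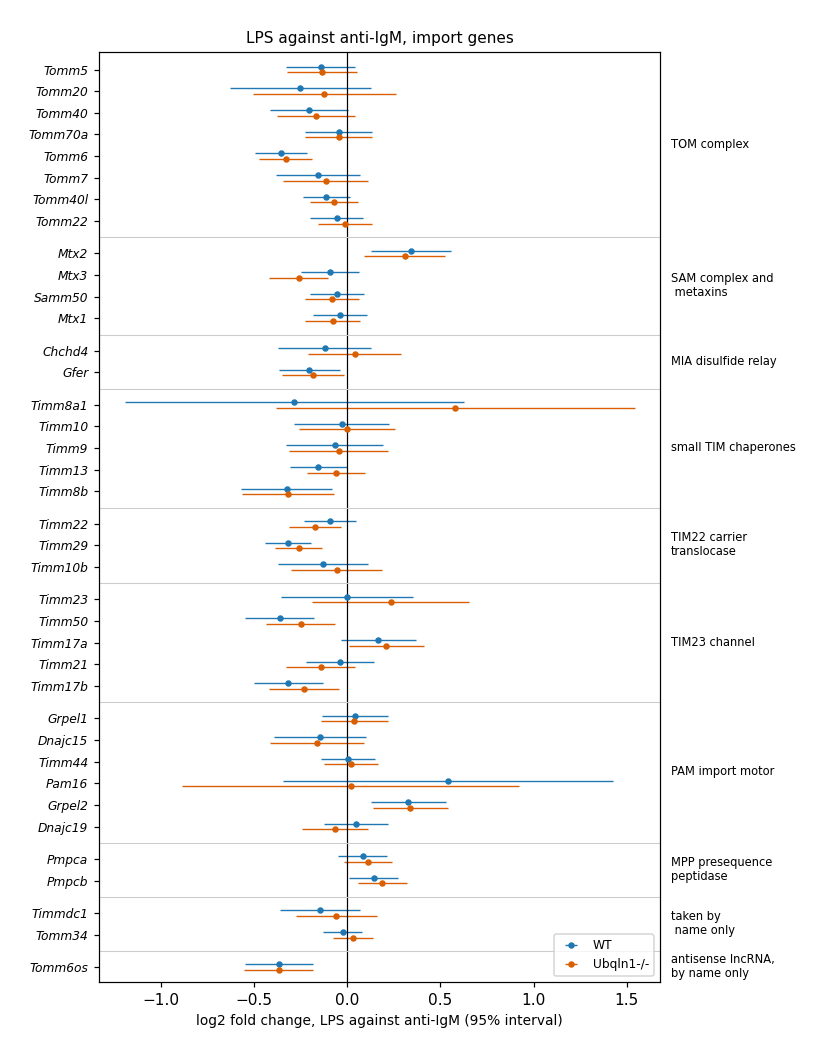
Log2 fold change of LPS against anti-IgM (horizontal axis) for the 38 tested import genes, ordered by role, in WT (blue) and Ubqln1-/- (orange) cells. Points are edgeR estimates from 3 libraries per group and bars are 95% intervals. Mtx2 and Grpel2 lie right of 0 in both genotypes, and Tomm6, Tomm6os, Timm29 and Timm50 lie left of 0.

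The ratio of 2 related genes within a library does not depend on how libraries are scaled. Its shift between groups does not depend on the gene widths either, but whether the log2 ratio lies above or below 0 does. For 7 pairs, the log2 ratio of the RPKM values (0.5 count added) was compared between stimulated and resting libraries, with an exact two-sided permutation test of 3 against 3, whose smallest p is 0.1, and p-values adjusted over the 28 tests. No such test can reach 0.05, and the smallest adjusted p was 0.117. The ratios themselves are therefore given with the groups' overlap.

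Timm10 stood below Timm10b in resting cells and above it after stimulation. The log2 ratio in WT cells was -0.93, -0.47 and -0.24 at rest, 1.03, 1.40 and 1.40 with anti-IgM and 1.14, 1.59 and 1.39 with LPS. Its values in Ubqln1-/- cells were -0.74, -0.58 and -0.43 at rest, 0.95, 1.16 and 1.30 with anti-IgM and 1.00, 1.37 and 1.17 with LPS. The mean shift was 1.82 and 1.72 with anti-IgM and 1.92 and 1.76 with LPS, without overlap.

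By RPKM, the pair Timm17a and Timm17b crossed over likewise. In WT cells the log2 ratio was -0.20, -0.05 and -0.19 at rest, 0.14, 0.52 and 0.50 with anti-IgM and 0.82, 0.98 and 0.80 with LPS. The Ubqln1-/- values were -0.24, -0.21 and -0.28 at rest, 0.14, 0.61 and 0.34 with anti-IgM and 0.81, 1.00 and 0.56 with LPS. By RPKM, Timm17b was thus the more abundant at rest in every library and Timm17a after either stimulus. The shifts were 0.53 and 0.60 with anti-IgM and 1.01 and 1.03 with LPS. This order rests on the deposited widths, 917 bases for Timm17a and 1641 for Timm17b. In CPM, Timm17b stayed higher with anti-IgM (means of 40.98 against 29.93 in WT and 40.65 against 29.03 in Ubqln1-/- cells). With LPS the CPM means were 32.93 for Timm17b and 33.59 for Timm17a in WT, and 34.67 and 33.57 in Ubqln1-/- cells.

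Tomm40 was already above Tomm40l, a related pore gene of low level, and drew farther ahead. The log2 ratio rose by 0.88 and 1.01 with anti-IgM and 0.78 and 0.91 with LPS, without overlap. Its values at rest were 1.96, 2.13 and 2.13 in WT libraries and 1.73, 1.82 and 1.83 in those without Ubqln1. Most of the words of Tomm40l overlap Nr1i3.

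The log2 ratio of Grpel1 to Grpel2 moved by 0.55 and 0.54 with anti-IgM and 0.26 and 0.24 with LPS, and stimulated and resting libraries did not overlap. That of Dnajc19 to Dnajc15 moved by -0.43 and -0.64 with anti-IgM and -0.23 and -0.54 with LPS, and in WT cells the LPS libraries overlapped the resting ones. That of Mtx1 to Mtx3 moved by -0.22 and -0.29 with anti-IgM, without overlap, and by -0.17 and -0.11 with LPS, with overlap. The ratio of Timm8a1 to Timm8b rested on at most 25 counts of Timm8a1 and moved by 1.92 and 0.60 with anti-IgM, the latter with overlap, and 1.98 and 1.67 with LPS.

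**Figure D4:**
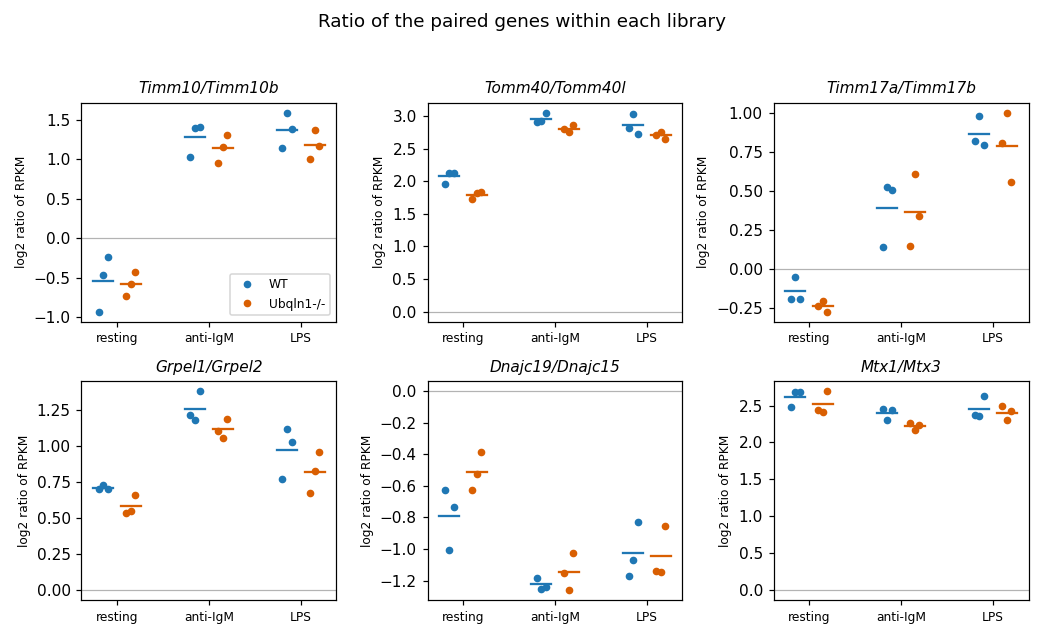
Log2 ratio of the RPKM values of 6 gene pairs (vertical axis) in each library, by stimulus (horizontal axis), in WT (blue) and Ubqln1-/- (orange) cells. Points are libraries and lines are the means of 3, the grey line marks equal levels, and vertical scales differ between panels. The ratios of Timm10 to Timm10b and of Timm17a to Timm17b cross from below to above 0 after both stimuli.

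No import transcript passed the test between genotypes. In edgeR's quasi-likelihood test 0 of 38 members were called between Ubqln1-/- and WT cells at rest, 0 with anti-IgM and 0 with LPS, and 1, 1 and 0 members had an unadjusted p under 0.05, as did 597, 728 and 557 of all 14161 tested genes. Of all tested genes, 0.0565%, 0.0989% and 0.0424% were called. The fits with the replicate block, with limma-voom and with DESeq2 called 0 members in each of these comparisons. With the block 5, 2 and 1 members had an unadjusted p under 0.05, and the number of all genes that did is not given here. Leaving aside the 4 members of low count, the 95% intervals of the log2 difference lay within -0.61 to 0.30 at rest, -0.46 to 0.32 with anti-IgM and -0.35 to 0.40 with LPS.

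The smallest p at rest was that of Dnajc15. In resting WT libraries it was at 15.5, 21.6 and 18.1 RPKM and in resting Ubqln1-/- libraries at 14.6, 15.3 and 13.9 RPKM. The groups did not overlap, and the difference was log2 -0.34 ± 0.13 (95% interval -0.61 to -0.08, adjusted p = 0.918). With anti-IgM and with LPS the Dnajc15 levels of the genotypes overlapped. Mtx3 had the smallest p with anti-IgM, at 5.59, 6.21 and 5.85 RPKM in WT and 5.93, 6.90 and 6.88 RPKM in Ubqln1-/- cells (log2 0.16 ± 0.07, adjusted p = 0.97). The genotypes overlapped. With LPS the smallest p was that of Timmdc1, at 11.5, 11.9 and 9.01 RPKM in WT and 11.6, 13.9 and 11.4 RPKM in Ubqln1-/- cells (log2 0.19 ± 0.10, adjusted p = 1). The genotypes overlapped here too.

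The response to each stimulus was also compared between genotypes as an interaction. For anti-IgM and for LPS, 0 of 38 members and 0% of all genes were called, and 0 members had an unadjusted p under 0.05 in edgeR's test without the block. With the block 0 members were called, and 0 for anti-IgM and 1 for LPS had an unadjusted p under 0.05. limma-voom and DESeq2 also called 0 members. Without the block, the smallest p belonged to Dnajc15 for anti-IgM, whose response was larger in Ubqln1-/- cells by log2 0.26 ± 0.17 (95% interval -0.10 to 0.63), and to Timm13 for LPS, larger by 0.21 ± 0.10 (95% interval -0.01 to 0.43). Timm13 was at 39.9, 49.8 and 43.6 RPKM at rest, 63.02, 68.5 and 64.4 with anti-IgM and 59.6, 62.9 and 53.5 with LPS in WT cells. Timm13 in Ubqln1-/- cells was at 40.2, 37.99 and 41.6 RPKM at rest, 63.6, 63.3 and 63.4 with anti-IgM and 61.4, 59.4 and 62.2 with LPS. The LPS libraries of the genotypes overlapped.

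**Figure D5:**
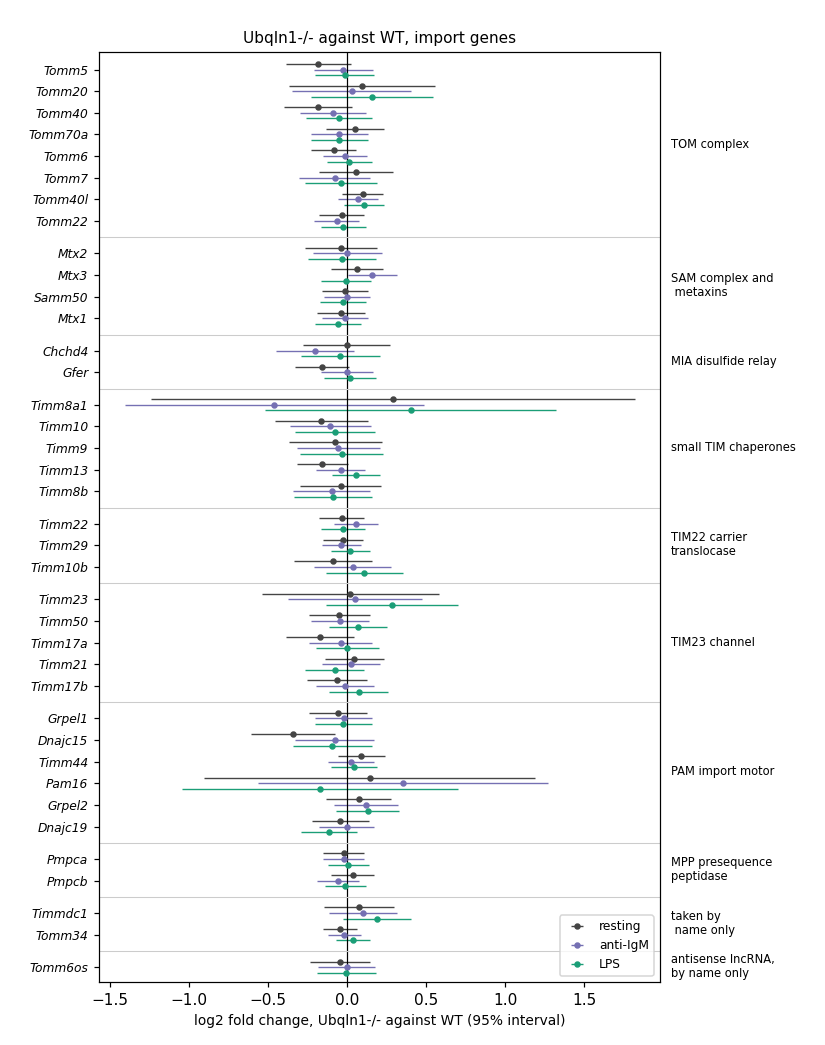
Log2 fold change of Ubqln1-/- against WT cells (horizontal axis) for the 38 tested import genes, ordered by role, at rest (grey), with anti-IgM (purple) and with LPS (green). Points are edgeR estimates from 3 libraries per group and bars are 95% intervals. The intervals hold 0 for all genes except Dnajc15 at rest and Mtx3 with anti-IgM, and are widest for Timm8a1, Pam16, Timm23 and Tomm20.

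Genes that work with the machinery but are outside the rule made a list of 16, of which 15 were tested. With anti-IgM 12 were higher and 2 lower in each genotype, beside 32.4% and 32.9% of all tested genes higher and 32.2% and 32.4% lower. With LPS 11 were higher and 2 lower in each genotype, beside 31.2% and 30.6% higher and 30.1% and 30.2% lower. Hspa9, the mitochondrial Hsp70 that drives the PAM motor, was at 78.3, 109 and 115 RPKM at rest, 259.5, 333 and 348 with anti-IgM and 223, 282 and 244 with LPS in WT cells. Levels in Ubqln1-/- cells were 83.1, 102 and 97.5 RPKM at rest, 259, 290.5 and 296 with anti-IgM and 212, 255 and 228 with LPS. The Hspa9 level rose by log2 1.64 ± 0.14 and 1.58 ± 0.14 with anti-IgM and 1.31 ± 0.14 and 1.30 ± 0.14 with LPS, and its mean level was above that of every member in each of the 6 groups. The largest rise with LPS was that of Pitrm1, which degrades cleaved presequences (1.75 ± 0.15 and 1.82 ± 0.15). The largest fall with anti-IgM was that of Mtch1, a relative of an outer-membrane insertase (-0.73 ± 0.10 and -0.75 ± 0.10), and with LPS that of Oxa1l, the inner-membrane insertase (-0.52 ± 0.05 and -0.53 ± 0.05).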

How the data were processed

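mRNA was sequenced from 18 libraries of splenic B cells (3 per group, 6 groups) on unstranded TruSeq v2 libraries. The authors aligned single-end reads with GSNAP to GRCm38, and the deposited values are whole read counts per gene beside RPKM values with a transcript width. Per the labels' processing notes, R 3.2.2 and limma were used. The counting program and its annotation are not given in the sources used here. The deposited RPKM columns were not used. RPKM and CPM values here were computed from the counts, the deposited width and TMM-scaled library sizes. Libraries held 15368941 to 41072854 counts (median 23257531), no 2 libraries were identical (0 identical pairs), and intervals cover the spread between libraries. Symbols were matched by gene ID to RefSeq (GRCm38.p6) for 25035 of 28096 genes (89.1%).

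Counts were fitted with edgeR 4.0.16 (quasi-likelihood test, TMM, filterByExpr, 1 term per group, all 18 libraries, 14161 genes tested, Benjamini-Hochberg adjustment over all of them), under R 4.3.3. Errors are SE for log2 fold changes and SD for levels. Ratios of related genes were tested with an exact permutation test written in python 3.11.15 with numpy 2.4.6, and figures were drawn with matplotlib 3.10.9. The fit was tested on simulated counts before use. Shared reads were found from 50-base words of all annotated transcripts. Alternatives were limma-voom 3.58.1, DESeq2 1.42.0, DESeq2's size factors, other filters, a replicate block, only the groups compared, a fold threshold and leaving out each library. The subset with few shared words or exonic bases was added after seeing the data.

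The 1 library per group without a number in the labels was taken as replicate 1. Same-numbered libraries deviated together within a genotype (18 of 18 pairs of groups correlated over 0.1, 0.228 to 0.516), so that the numbers were taken to pair stimulated with resting libraries. The paper's legends describe this RNA sequencing as independent experiments and use paired t tests. The main fit and the ratio tests leave the pairing out. The replicate block, which uses the pairing, added 15 calls of single members and removed 0. Each of the 15 is named above as called with the block. Between genotypes, same-numbered libraries correlated at 0.298, 0.083 and 0.197 at rest. The values were 0.388, 0.211 and 0.205 with anti-IgM and 0.319, 0.315 and 0.253 with LPS. Over all groups, same-numbered pairs lay between 0.055 and 0.516, and no pair with different numbers was above 0.08. Values in all libraries are given for the 6 members with the largest mean change per stimulus called in both genotypes, for those called lower in both, for the smallest p of each genotype comparison and for pairs of related genes. Timm29, Timm50 and Mtx2 were added after their values were seen. The members, lists and this rule were chosen with earlier results of these data known. Columns of fold changes or p-values by the authors were not used.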

Additional observations from a re-analysis of the deposited data

How the results depend on the processing

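No call of a member changed direction under any alternative, and the 28 ratio shifts kept their direction with 1 count added and without each library. Between genotypes and in the interactions, 0 members were called under every alternative. Under limma-voom each of the counts of calls in the report held within 1.5 times. A log2 fold change over 1 left 9 (WT) and 9 (Ubqln1-/-) members higher with anti-IgM, 9 and 10 with LPS, 0 lower than at rest, and 0 in either direction between LPS and anti-IgM. The replicate block gave 2 members lower with LPS in WT cells, 1 in Ubqln1-/- cells, and 9 lower with LPS than with anti-IgM in Ubqln1-/- cells, and changed no other count by over 1.5 times. Fits of only the groups compared gave 0 lower with anti-IgM in WT cells, 1 higher with LPS than with anti-IgM in WT cells and 9 lower in Ubqln1-/- cells. DESeq2 and a minimum of 10 counts in every library each gave 1 lower with LPS in Ubqln1-/- cells and 8 lower with LPS than with anti-IgM there, DESeq2's size factors within edgeR gave 1 lower with LPS in Ubqln1-/- cells, and testing all genes with a total of 1 count gave 0 lower with anti-IgM in Ubqln1-/- cells. The list restricted to members with few shared words or exonic bases and without low counts is smaller by construction. It left 21 and 23 higher with anti-IgM, 19 and 17 with LPS, and 3 and 3 lower with LPS than with anti-IgM. The cause of the other changes was not tested.

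Leaving out each library gave 30 to 33 members higher and 1 to 1 lower with anti-IgM in WT cells, and 30 to 33 higher and 0 to 1 lower in Ubqln1-/- cells. With LPS it gave 26 to 32 higher and 1 to 2 lower in WT cells, and 28 to 29 higher and 0 to 0 lower in Ubqln1-/- cells. Between LPS and anti-IgM it gave 0 to 2 higher and 4 to 8 lower in WT cells, and 0 to 3 higher and 3 to 4 lower in Ubqln1-/- cells. Of the single members' calls, the block added 15 and removed 0, DESeq2 added 5 and removed 2, limma-voom added 1 and removed 2, and fits of only the groups compared added 5 and removed 10. Low counts limit Timm8a1, Pam16, Timm23 and Tomm20. How reads that match several genes were counted is not given in the sources used here, and its part in these low counts was not tested.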
